A study of Mus musculus with 8 samples.

Results

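The 34 genes described here are genes of skeletal muscle, taken by gene name from the 57132 genes of the count table. They comprise 13 genes of fast fibres, 6 of slow fibres, 5 of regenerating or developing muscle and 10 that all fibres share. The rule takes them by gene name and not by a measured value, but the list was drawn up with earlier results of these data known. The tissue was KPC tumour, a mouse model of pancreatic cancer, grown under the skin of mice. The PDT group (4 libraries) came from tumours treated with Ce6@D4-EV and then lit, a form of photodynamic therapy in which Ce6 (chlorin e6) makes reactive oxygen species under light, and D4-EV is the carrier as the submitters name it. The PBS group (4 libraries) came from tumours given PBS, a buffered saline, as the control. The sources used here do not give mouse strain, sex, age, dose or time after treatment, and no group with light alone or with unlit carrier was analysed here. The labels call the tissue sorted but name no gate, and nothing states that each library is a different animal, so a p-value measures only how these libraries spread.

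Skeletal muscle contracts when calcium, released from the sarcoplasmic reticulum, binds troponin on the thin actin filament and frees it for the myosin of the thick filament. Fast and slow fibres use different genes for the same parts. Their myosin heavy chain, troponin and myosin light chain transcripts therefore serve as markers of fibre type. Damaged muscle is rebuilt from satellite cells marked by Pax7, which turn on Myod1 and Myog and then make embryonic and perinatal myosins before adult ones. A tumour grown under mouse skin lies near a thin sheet of skeletal muscle, the panniculus carnosus, but bulk RNA does not record where in a sample a transcript lay, so the place of these transcripts relative to the tumour was not measured.

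Libraries held 35742024 to 48804713 reads in genes. A gene with 0 reads could still have had up to 3 by chance, a limit of 0.0665 to 0.0872 CPM (counts-per-million, of scaled library size) that covers counting error only. Most low counts were even numbers (77.9% to 83.8% of counts from 1 to 20), the pattern left when both reads of a pair are counted, so such limits are too narrow. Of the 34 muscle genes, 30 to 33 had at least 1 read in each PDT library and 26 to 31 in each PBS library. Skeletal muscle markers Acta1, Ckm, Tnnt3 and Mylpf had reads in all 8 libraries. Of 8 genes of heart, the atrial peptide Nppa had 0 reads in all 8 libraries and the cardiac myosin Myh6 at most 0.223 CPM, while Tnni3 (cardiac troponin I) reached 1.40 CPM in PBS 4 and Myl7 (atrial light chain) 3.68 CPM in PBS 3.

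All muscle genes together were a small and very uneven share of the RNA. They took 0.105%, 0.471%, 0.0646% and 0.0262% of reads in PDT 1 to PDT 4, against 0.0404%, 0.203%, 0.0517% and 0.0138% in PBS 1 to PBS 4. Library 2 was the highest of each group, and library 4 the lowest of each. The summed level was 1676 ± 2034 CPM in PDT and 749 ± 816 CPM in PBS (SD, n = 4 each), so each SD was larger than its mean. PDT 2 held 4.11 times the summed level of the next PDT library, PBS 2 held 3.85 times that of the next PBS library, and the whole range, from PBS 4 to PDT 2, was 32.6-fold. In bulk tissue, more muscle fibres in a sample and more muscle RNA per fibre cannot be told apart.

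Acta1, the alpha-actin of the skeletal muscle thin filament, made up 22.6% to 51.2% of the muscle reads of a library. Its level was 409, 1855, 226 and 79.2 CPM in PDT 1 to PDT 4 and 199, 841, 259 and 32.4 CPM in PBS 1 to PBS 4. The groups overlapped widely, and the difference between PDT 2 and PDT 4 was 23.4-fold, far more than the difference between the groups. In log2, PDT minus PBS was 0.95 ± 0.93 (SE, adjusted p = 0.679 by edgeR's quasi-likelihood test with Benjamini-Hochberg adjustment over all tested genes).

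**Figure D1:**
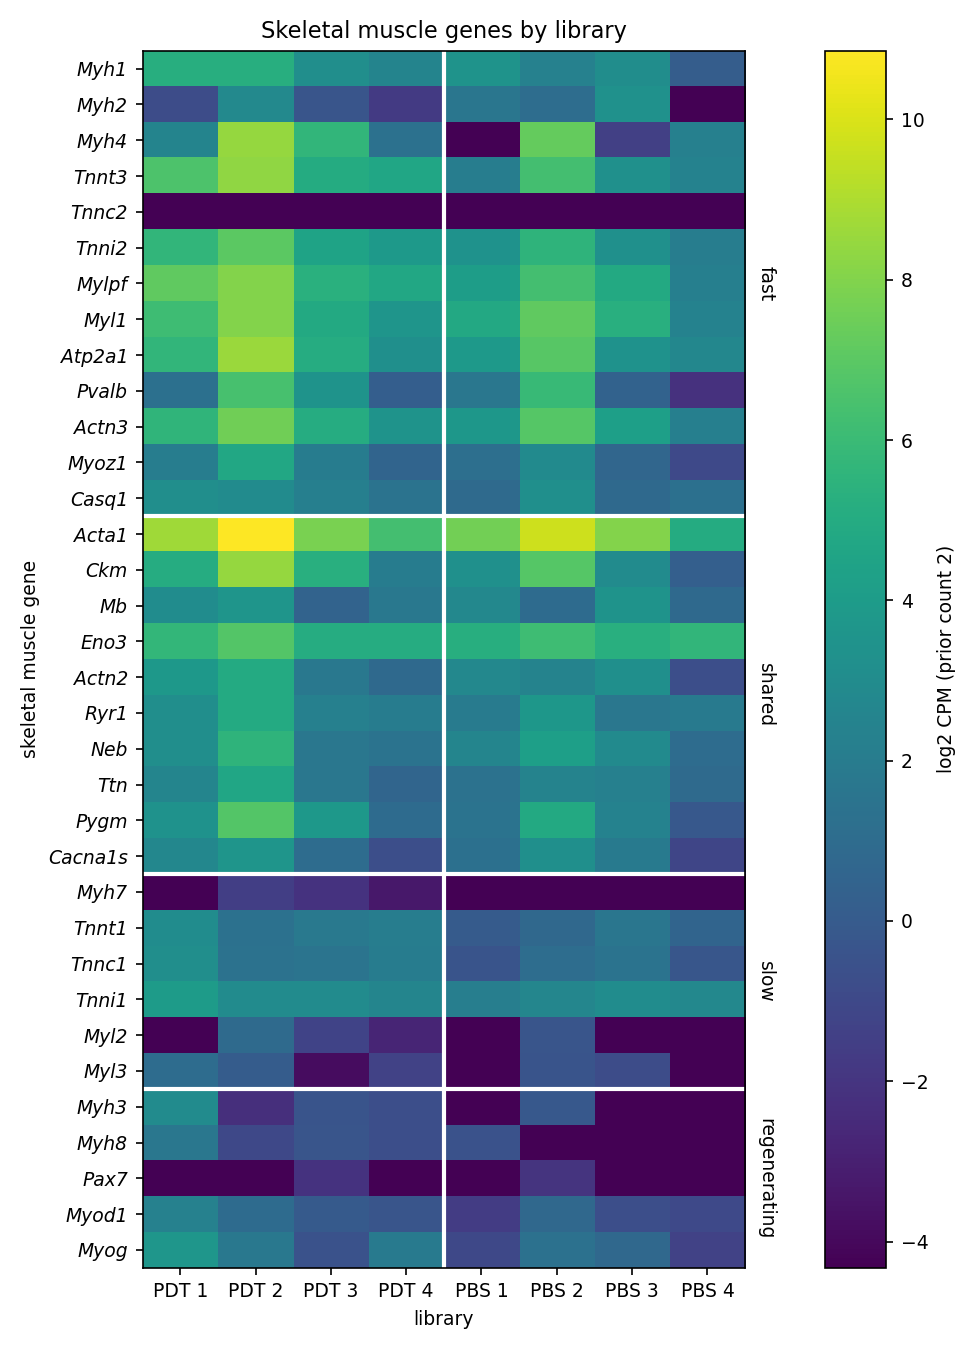
Level of each of the 34 muscle genes (rows, by class) in each library (columns), as log2 CPM with a prior count of 2. PDT 2 and PBS 2 are bright through the fast and shared rows, while PDT 1 is brightest in Tnnt1, Tnnc1, Tnni1, Myl3, Myh3, Myh8, Myod1 and Myog, and Tnnc2 has no reads in any of the 8 libraries.

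Of the 34 muscle genes, 30 had enough reads to be tested. Tnnc2, Myh7, Myl2 and Pax7 did not. None of the 30 passed the threshold of 0.05 on the adjusted p by edgeR, against 0.235% of the 16588 tested genes. DESeq2 (among genes it gave an adjusted p) and limma-voom also called 0 of them, against 6.36% and 1.01% of all genes with a value. At an unadjusted p under 0.05, edgeR counted 6 of 30, against 16.5% of all tested genes. All 6 were higher in PDT, and the share of all tested genes in that direction was 8.63%. In no muscle gene did the groups separate without overlap, while 5% of all tested genes had every PDT library above every PBS library and 5.12% the reverse.

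The fitted differences nevertheless leaned one way. Of the 30 tested genes, 29 had a positive log2 change and 1, Myh2, a negative one, with a median of 1.36, against a median of −0.0022 and a positive share of 49.8% over all tested genes. The genes move together from library to library, so they are not 30 separate observations. Median log2 changes were 1.47 for the 12 tested fast genes, 1.40 for 4 slow genes, 0.999 for 10 shared genes and 2.47 for 4 regenerating genes. Adjusted p-values ran from 0.182 to 0.909.

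A single library carried much of this. Without PDT 2, 16 of 30 genes had a positive log2 change and the median was 0.086. Fast genes then had a median of −0.067 and shared genes −0.286, while slow genes stayed at 1.48 and regenerating genes at 2.703. Without PBS 2, the median over the 30 genes was 2.11. With both of these libraries left out, an alternative chosen after seeing the data, 26 of 30 genes had a positive log2 change, the median was 1.51, and 0 genes were called. The medians were then 1.52 for fast, 1.74 for slow, 0.333 for shared and 2.79 for regenerating genes.

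**Figure D2:**
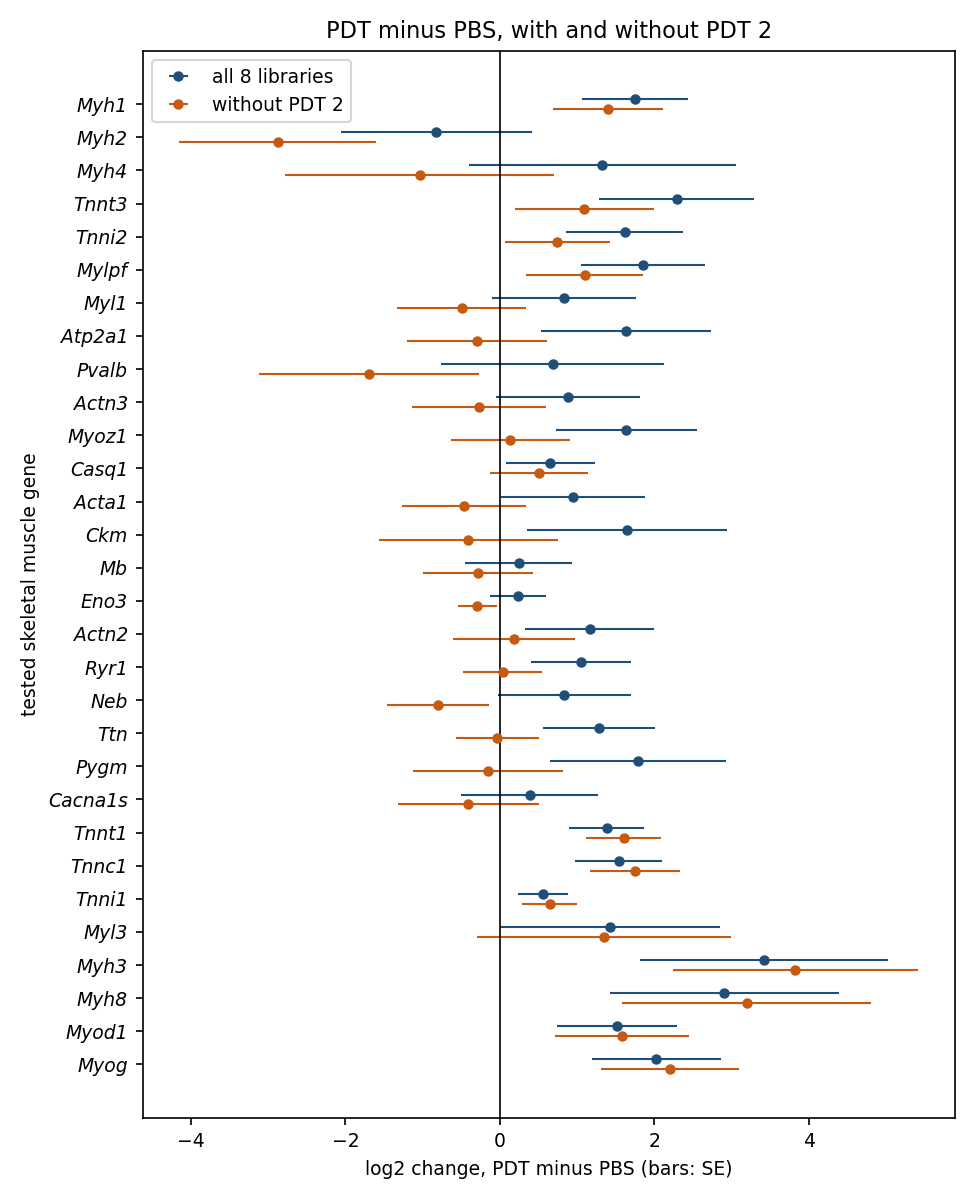
Log2 change, PDT minus PBS, with its SE for the 30 tested muscle genes, from all 8 libraries (blue) and without PDT 2 (orange). Leaving out PDT 2 moves most fast and shared genes toward or below 0, while slow and regenerating genes move little.

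The myosin heavy chains, the motor proteins of the thick filament, differ by fibre type: Myh4 is the chain of fast IIb fibres, Myh1 of IIx, Myh2 of IIa and Myh7 of slow fibres, while Myh3 is the embryonic and Myh8 the perinatal chain. The fast and developmental chains stand next to each other on chromosome 11. The coding sequences are closely alike, at 90.1% identity between Myh4 and Myh1, 90.9% between Myh1 and Myh2 and 88.2% between Myh4 and Myh2. The 60 bases below (from GENCODE transcripts of GRCm38) show the stretch in which these fast chains differ most, and capitals mark the 25 positions at which not all of them have the same base. Reads from such stretches tell the chains apart.

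Myh4: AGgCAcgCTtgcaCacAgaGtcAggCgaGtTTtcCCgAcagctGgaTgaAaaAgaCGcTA
Myh1: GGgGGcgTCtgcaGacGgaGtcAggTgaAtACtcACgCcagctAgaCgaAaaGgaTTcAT
Myh2: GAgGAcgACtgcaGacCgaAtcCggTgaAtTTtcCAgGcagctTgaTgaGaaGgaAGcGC

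Elsewhere the chains share bases. Windows of 50 bases that recur exactly in another gene's transcript made up 26.7% of Myh1, 26.9% of Myh2, 18.9% of Myh4, 21.4% of Myh8 and 4.81% of Myh3, and 9.73%, 9.17%, 3.85%, 6.61% and 1.15% for windows of 100 bases in the same order. How the authors' counting treated a read that fits several chains is not stated in the sources at hand, so low values of a chain beside an abundant relative are uncertain.

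Myh4, the IIb chain, varied widely within both groups. It had 5.81, 350, 50.7 and 2.49 CPM in PDT 1 to PDT 4 and 0, 157, 0.315 and 4.88 CPM in PBS 1 to PBS 4. PDT 2 and PBS 2 were the highest of their groups, and PBS 1 had no Myh4 read at all. The log2 change was 1.33 ± 1.73 (SE, adjusted p = 0.772 by edgeR), and −1.04 without PDT 2.

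Myh1, the IIx chain, was steadier. It had 36.0, 36.3, 9.01 and 5.67 CPM in PDT 1 to PDT 4 and 11.05, 5.10, 8.60 and 1.05 CPM in PBS 1 to PBS 4. PDT 1 and PDT 2 lay above every PBS library, while PDT 3 and PDT 4 lay within the PBS range. Fitted over all 8 libraries, the log2 change was 1.75 ± 0.69 (SE, adjusted p = 0.226 by edgeR), and 1.40 without PDT 2.

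Myh2, the IIa chain, was the 1 tested gene with a negative log2 change. It had 0.532, 7.14, 0.758 and 0.244 CPM in PDT 1 to PDT 4 and 3.05, 2.07, 10.2 and 0 CPM in PBS 1 to PBS 4. Its highest library was PBS 3. Its log2 change was −0.82 ± 1.24 (SE, adjusted p = 0.809 by edgeR), and it became positive, at 0.34, without PBS 3.

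As shares of the heavy chain reads of each library, the chains set the libraries apart within both groups. Myh4 led in PDT 2 with 88.8% of 15475 heavy chain reads (95% exact Clopper-Pearson interval 88.2% to 89.2%) and in PDT 3 with 81.6% of 2783 (80.2% to 83.1%). It also led in PBS 2 with 95.1% of 6934 (94.6% to 95.6%) and in PBS 4 with 82.4% of 204 (76.4% to 87.3%). The intervals of heavy chain shares, here and below, cover counting error only. They are too narrow if both reads of a pair were counted, as the even counts described above leave likely. Libraries led by the IIb chain were thus found in both groups, 2 of 4 in each.

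The other libraries were led by IIx or IIa chains. Myh1 took 67.2% of 2414 heavy chain reads in PDT 1 (65.3% to 69.1%) and 58.9% of 394 in PDT 4 (53.9% to 63.8%), against 74.9% of 542 in PBS 1 (71.0% to 78.5%). In PBS 3, Myh2 took 53.4% of 727 (49.7% to 57.0%) and Myh1 took 45.0% (41.3% to 48.7%). Myh2 took 20.7% in PBS 1 (17.3% to 24.3%), but 1.255% in PBS 2 and 0% in PBS 4. In the PDT libraries it took 0.994% to 2.54%. For Myh4 in PBS 1, 0 of 542 reads allows a share of up to 0.554% by the limit of 3 reads, and of up to 0.678% by the Clopper-Pearson interval. Dividing by transcript length moved no share by more than 1.33 percentage points.

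**Figure D3:**
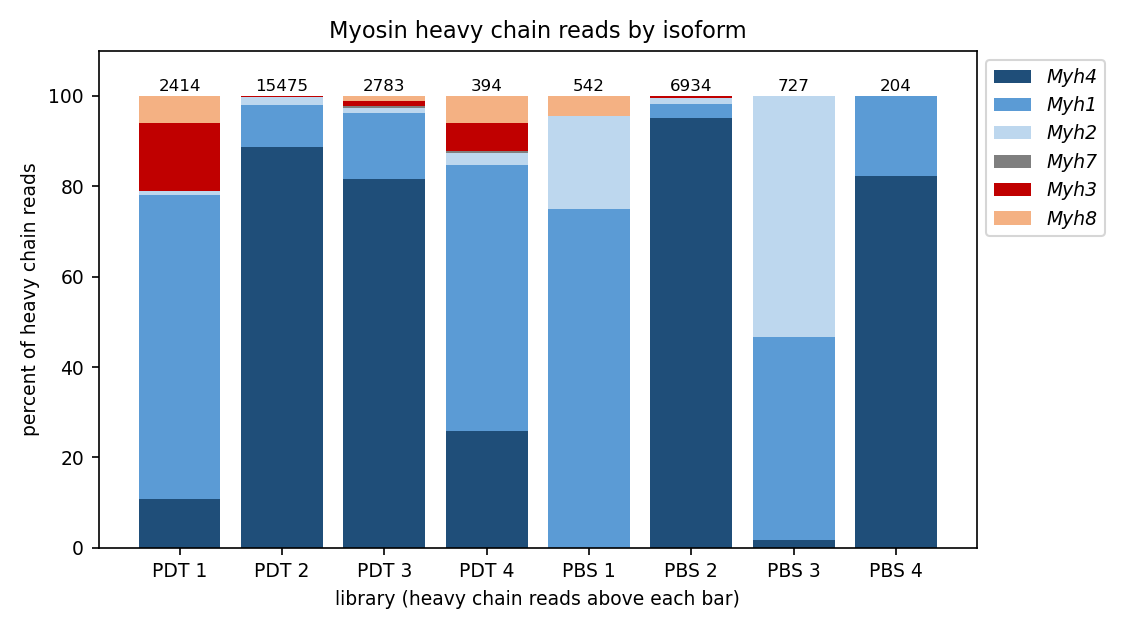
Percent of myosin heavy chain reads from each chain (stacked bars) in each library, with the number of heavy chain reads above each bar. Myh4 fills most of PDT 2, PDT 3, PBS 2 and PBS 4, Myh1 leads in PDT 1, PDT 4 and PBS 1, and the embryonic Myh3 is largest in PDT 1 at 15%.

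The 250 bases before the start are shown (RefSeq, GRCm38.p6, plus strand) for the embryonic chain, which was largest in PDT 1, and for the IIx and IIb chains, each of which led in several libraries, at chr11:67078050-67078299, chr11:67199852-67200101 and chr11:67237562-67237811 in that order. Capitals mark E-boxes, the CANNTG motif to which Myod1 and Myog proteins bind.

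Myh3: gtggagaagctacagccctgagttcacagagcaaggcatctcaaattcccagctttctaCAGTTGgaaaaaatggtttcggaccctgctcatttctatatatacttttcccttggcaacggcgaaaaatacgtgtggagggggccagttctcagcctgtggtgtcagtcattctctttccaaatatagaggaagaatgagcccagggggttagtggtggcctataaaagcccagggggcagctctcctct
Myh1: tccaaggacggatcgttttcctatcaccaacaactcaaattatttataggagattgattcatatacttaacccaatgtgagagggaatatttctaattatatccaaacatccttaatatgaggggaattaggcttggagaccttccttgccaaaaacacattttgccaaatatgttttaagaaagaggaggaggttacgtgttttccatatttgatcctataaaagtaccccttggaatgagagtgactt
Myh4: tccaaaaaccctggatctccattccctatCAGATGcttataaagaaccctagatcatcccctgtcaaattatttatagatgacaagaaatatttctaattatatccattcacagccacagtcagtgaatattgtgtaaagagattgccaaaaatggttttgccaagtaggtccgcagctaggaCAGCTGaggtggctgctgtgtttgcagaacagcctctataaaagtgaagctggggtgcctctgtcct

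Myh3 held 1 E-box in this window, Myh1 held 0 and Myh4 held 2. RefSeq promoters were matched for 28 of the 34 genes. Searched on both strands, CANNTG was in the window of 24 of the 28 (85.7%), against 69.3% of all 26994 genes with a promoter, and CAGCTG, which is a form of CANNTG, in 12 of 28 (42.9%), against 14.7%. TATAAA was in 8 of 28 (28.6%, against 14.3%), the CArG box, bound by serum response factor, in 3 (10.7%, against 1.63%), and the MEF2 site in 1 (3.57%, against 0.593%). These are letter matches and say nothing of binding in these samples.

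Apart from Casq1 and Tnnc2, the other fast fibre genes were highest in PDT 2 and, within PBS, in PBS 2, as the muscle total was. The order of the remaining libraries was not always that of the total. Per kb of transcript and averaged over all 8 libraries, the light chain Mylpf had 92.1 CPM per kb, fast troponin T (Tnnt3) 62.5, the light chain Myl1 50.1 and fast troponin I (Tnni2) 41.7, behind Acta1 at 337 CPM per kb. Mylpf had 140, 265, 40.4 and 27.6 CPM in PDT 1 to PDT 4 and 17.4, 78.6, 30.1 and 4.54 CPM in PBS 1 to PBS 4. In log2 the difference was 1.85 ± 0.80 (SE, adjusted p = 0.273 by edgeR).

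Tnnt3, which anchors the troponin complex to tropomyosin, had 99.0, 328, 32.2 and 25.2 CPM in PDT 1 to PDT 4 and 4.30, 79.7, 9.62 and 5.29 CPM in PBS 1 to PBS 4. All PDT libraries lay above PBS 1, PBS 3 and PBS 4, and PBS 2 lay above PDT 3 and PDT 4. The log2 change was 2.29 ± 1.01 (SE, adjusted p = 0.283 by edgeR), the largest of the fast genes. Without PDT 2 it was 1.09, and without PBS 2 it was 4.24.

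Tnni2, the inhibitory troponin subunit, had 51.6, 130, 22.3 and 15.1 CPM in PDT 1 to PDT 4 and 10.5, 46.7, 9.94 and 4.22 CPM in PBS 1 to PBS 4, the same order as Tnnt3 within PDT. Its log2 change was 1.62 ± 0.75 (SE, adjusted p = 0.313 by edgeR). Without PDT 2, the log2 changes of Tnni2, Tnnt3, Mylpf and Myh1 were 0.75, 1.09, 1.10 and 1.40.

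Atp2a1, the calcium pump of the fast sarcoplasmic reticulum, had 50.4, 385, 33.0 and 9.51 CPM in PDT 1 to PDT 4 and 14.3, 123, 10.5 and 6.34 CPM in PBS 1 to PBS 4. Pvalb, the cytosolic calcium buffer parvalbumin, had 2.35, 88.0, 11.2 and 1.12 CPM in PDT 1 to PDT 4 and 3.21, 58.9, 1.31 and 0.174 CPM in PBS 1 to PBS 4. For this pump and this buffer, library 2 of each group was far above the rest, and without PDT 2 the log2 changes were −0.30 and −1.70, against 1.63 and 0.69 with all libraries.

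Casq1, which stores calcium in the reticulum, was highest in PBS 2 at 9.32 CPM. It ranged from 2.66 to 8.87 CPM in PDT, where PDT 1 was the highest, and from 1.74 to 9.32 CPM in PBS. Its log2 change was 0.65 ± 0.57 (SE), and 0.51 without PDT 2. Actn3, the fast fibre alpha-actinin of the Z-disc, and Myoz1, a Z-disc protein that binds calcineurin, were highest in PDT 2 and lowest in PBS 4, with log2 changes of 0.88 and 1.64, but −0.27 and 0.14 without PDT 2. Myl1 did likewise, at 0.83 and −0.49 without PDT 2, and 23.4% of its windows of 50 bases recur in the pseudogene Mylf-ps.

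Tnnc2, the calcium-binding troponin subunit of fast fibres, is listed at 0 in all 8 libraries, although its partners Tnnt3 and Tnni2 were abundant. In the GENCODE annotation of GRCm38, 84.6% of its exon bases overlap the gene Ube2c on the opposite strand. How such bases were counted is not stated in the sources at hand, so this 0 is not read as absence of the transcript.

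Slow fibre genes of the thin filament had reads in every library, while each slow gene of the thick filament had 0 reads in at least 2 of the 8. Tnnt1, slow troponin T, had 8.38, 2.50, 3.39 and 4.25 CPM in PDT 1 to PDT 4 and 0.980, 1.67, 2.997 and 1.45 CPM in PBS 1 to PBS 4. Only PBS 3 and PDT 2 crossed over. The log2 change was 1.38 ± 0.48 (SE), and its adjusted p of 0.182 by edgeR was the smallest of the muscle genes.

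Tnnc1, the troponin C of slow and cardiac muscle, had 8.82, 2.60, 2.81 and 4.06 CPM in PDT 1 to PDT 4 and 0.708, 2.05, 2.73 and 0.785 CPM in PBS 1 to PBS 4. Again PBS 3 lay just above PDT 2 and no other pair crossed. For Tnnc1 the log2 change was 1.54 ± 0.56 (SE, adjusted p = 0.197 by edgeR).

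Tnni1, slow troponin I, had 15.9, 7.95, 7.89 and 5.94 CPM in PDT 1 to PDT 4 and 4.35, 6.20, 8.20 and 6.80 CPM in PBS 1 to PBS 4. Apart from PDT 1, the PDT libraries lay within the PBS range, and the log2 change was 0.56 ± 0.33 (SE, adjusted p = 0.434 by edgeR). For Tnnt1, Tnnc1 and Tnni1 the highest library was PDT 1 and not PDT 2, which held most muscle RNA. Without PDT 1 their log2 changes were 0.94, 1.02 and 0.20, and without PDT 2 they were 1.60, 1.75 and 0.65.

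The slow heavy chain Myh7 had 0, 0.306, 0.178 and 0.0489 CPM in PDT 1 to PDT 4 and 0 reads in every PBS library. The slow light chain Myl2 had at most 1.83 CPM, in PDT 2, and 0 reads in PDT 1, PBS 1, PBS 3 and PBS 4. Myl3, the other slow light chain, peaked at 1.995 CPM in PDT 1, and its log2 difference was 1.43 ± 1.43 (SE, adjusted p = 0.686 by edgeR). Myh7 thus made up at most 0.508% of the heavy chain reads of a library, in PDT 4 (2 reads). PDT 1, the highest library for Tnnt1, Tnnc1, Tnni1 and Myl3, had 0 reads of Myh7 and of Myl2. Levels of the slow genes, and the ratios below, are therefore not read as amounts of slow fibres.

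Fast to slow ratios were taken per kb of transcript within a library. Tnnt3 stood at 10.9, 121, 8.78 and 5.48 times Tnnt1 in PDT 1 to PDT 4, and at 4.06, 44.15, 2.97 and 3.365 times in PBS 1 to PBS 4. Tnni2 stood at 4.75, 24.0, 4.14 and 3.705 times Tnni1 in PDT 1 to PDT 4, and at 3.53, 11.01, 1.77 and 0.906 times in PBS 1 to PBS 4. Both troponin ratios were highest in PDT 2 and next in PBS 2, and PBS 4 was the 1 library in which the slow troponin I level was the higher. The light chain ratios had another order and rest on few slow reads: Mylpf stood at 219, 172 and 428 times Myl2 in PDT 2 to PDT 4 and at 156 times in PBS 2, with no Myl2 read elsewhere. Myl1 stood at 25.4, 188.5, 974 and 25.6 times Myl3 in PDT 1 to PDT 4 and at 143 and 52.6 times in PBS 2 and PBS 3, with no Myl3 read in PBS 1 and PBS 4.

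Among genes of regenerating and developing muscle, PDT 1 and not PDT 2 held the highest level of Myod1, Myog, Myh3 and Myh8. Myod1, the transcription factor that commits cells to the muscle lineage, had 5.10, 1.94, 0.937 and 0.733 CPM in PDT 1 to PDT 4 and 0.272, 1.72, 0.578 and 0.465 CPM in PBS 1 to PBS 4. Its log2 change was 1.51 ± 0.78 (SE, adjusted p = 0.365 by edgeR). PDT 1 stood above all other libraries, and PBS 2 lay within the PDT range.

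Myog, the factor that drives differentiation of myoblasts, had 12.5, 3.26, 0.669 and 3.81 CPM in PDT 1 to PDT 4 and 0.435, 2.48, 1.68 and 0.349 CPM in PBS 1 to PBS 4. PDT 1 was again the highest, and PDT 3 lay below PBS 2 and PBS 3. The fitted log2 change was 2.03 ± 0.83 (SE, adjusted p = 0.250 by edgeR).

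The embryonic chain Myh3 had 8.02, 0.153, 0.714 and 0.587 CPM in PDT 1 to PDT 4, against 0.858 CPM in PBS 2 and 0 reads in PBS 1, PBS 3 and PBS 4. It had reads in 4 of 4 PDT libraries and 1 of 4 PBS libraries, and its log2 change was 3.42 ± 1.61 (SE, adjusted p = 0.315 by edgeR). Without PDT 1 it was 1.16. Without PBS 2 every remaining PBS library was at 0 reads, so no fold is given for that case.

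The perinatal chain Myh8 had 3.19, 0.433, 0.736 and 0.587 CPM in PDT 1 to PDT 4, against 0.653 CPM in PBS 1 and 0 reads in the other PBS libraries. In log2 the groups differed by 2.91 ± 1.48 (SE, adjusted p = 0.362 by edgeR). Pax7, the satellite cell factor, had reads in PDT 3 (0.178 CPM) and PBS 2 (0.191 CPM) alone and was not tested. In 2 of the 5 regenerating genes, Myh3 and Myh8, PDT had reads in every library and PBS in 1 library each. The share of all genes with such a pattern was not computed. Over all genes, PDT libraries had reads in 19686 to 22317 genes and PBS libraries in 17537 to 19835.

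**Figure D4:**
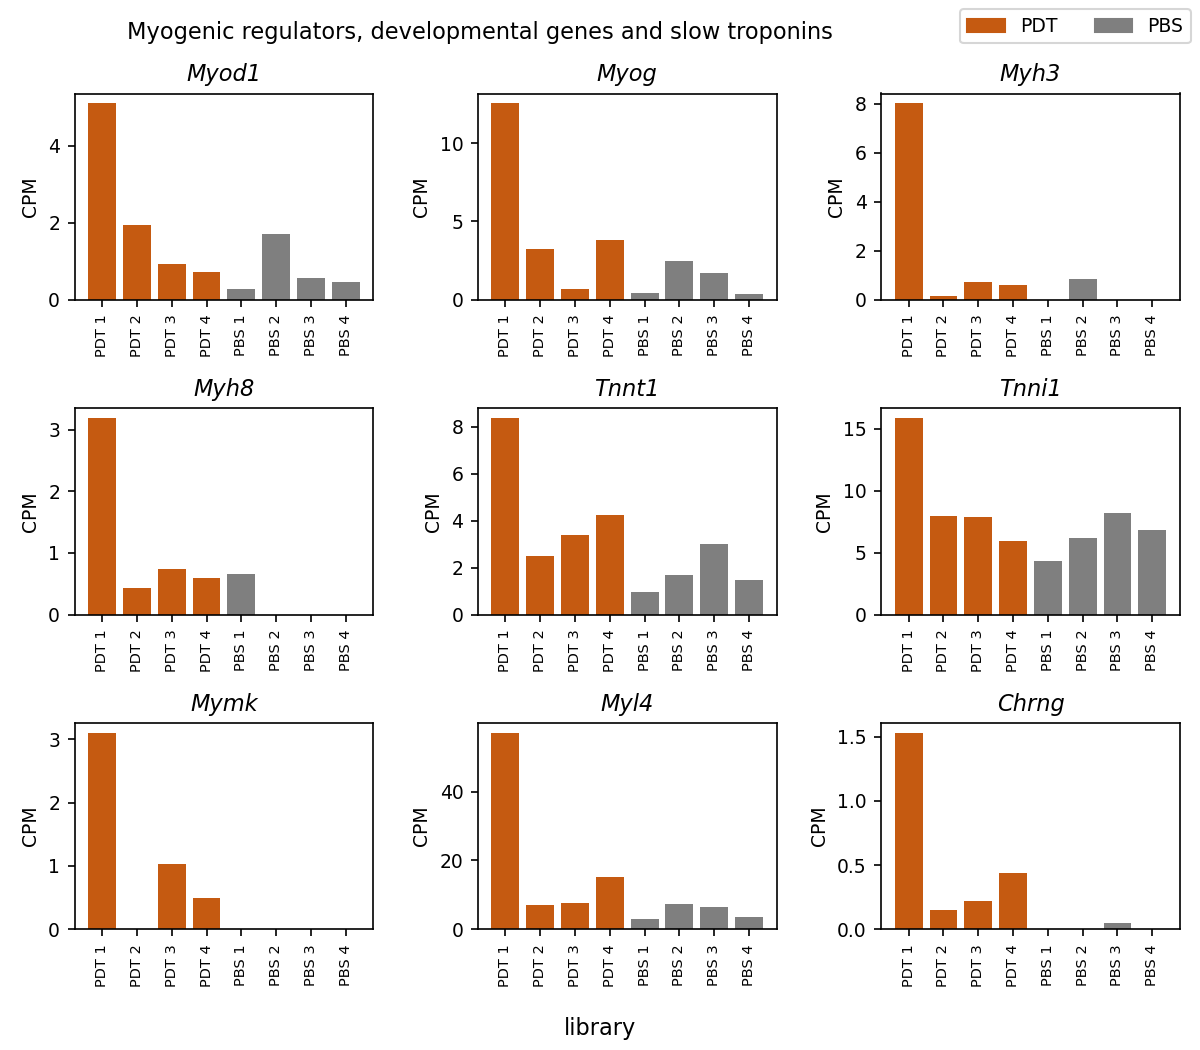
CPM by library for myogenic factors (Myod1, Myog), developmental heavy chains (Myh3, Myh8), slow troponins (Tnnt1, Tnni1) and further developmental genes (Mymk, Myl4, Chrng), PDT in orange and PBS in grey. PDT 1 is the tallest bar in each of the 9 panels, of which Mymk and Chrng were chosen after their values were seen. PBS bars are at 0 in Mymk. The panels are a selection: Pax7, Myh7 and Myl2, with 0 reads in PDT 1, are not shown. Of the 16 genes of the further regeneration list, 8 were highest in PDT 1.

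Within PDT the summed regenerating genes did not have the order of the muscle total, while within PBS they did. Relative to Acta1, Myog had 30.7, 1.76, 2.955 and 48.15 reads per 1000 Acta1 reads in PDT 1 to PDT 4, and 2.19, 2.95, 6.49 and 10.8 in PBS 1 to PBS 4. PDT 4, with the least muscle RNA of the PDT libraries, had the highest ratio, and PDT 2, with the most, had the lowest. Myh3 had 19.6, 0.0824, 3.15 and 7.41 reads per 1000 Acta1 reads in PDT 1 to PDT 4, against 1.02 in PBS 2 and 0 in the others. Myod1 had 12.5, 1.04, 4.14 and 9.26 reads on the same scale in PDT 1 to PDT 4, against 1.37, 2.04, 2.23 and 14.35 in PBS 1 to PBS 4, so its highest ratio was in PBS 4. Myh8 had 7.81, 0.234, 3.25 and 7.41 in PDT 1 to PDT 4, against 3.285 in PBS 1 and 0 in the others. The embryonic chain took 15% of heavy chain reads in PDT 1 (13.6% to 16.5%), 6.09% in PDT 4 (3.94% to 8.93%), 1.15% in PDT 3 and 0.0388% in PDT 2, against 0.519% in PBS 2.

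The regenerating class had its highest sum in PDT 1, where Pax7 had 0 reads. Its summed level was 28.9, 5.78, 3.23 and 5.72 CPM in PDT 1 to PDT 4 and 1.36, 5.24, 2.26 and 0.814 CPM in PBS 1 to PBS 4. Without PDT 1 the median log2 change of its 4 tested genes was 1.12, against 2.47 with all libraries, and all 4 stayed positive. In that fit, 0 of the 31 muscle genes tested had an unadjusted p under 0.05 by edgeR, against 2162 of all 17114 tested genes. With all libraries, 1 of the 4 regenerating genes had such a p, so this count says little about the class.

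Across the 8 libraries, the correlation of log2 CPM between genes differed by class, without a clean split. The values are a description, since the points share their library and its depth. Pairs of a fast and a shared gene had a median Pearson r of 0.789 (120 pairs, n = 8 libraries). Pairs of a slow and a regenerating gene had a median r of 0.731 (16 pairs). The median was 0.397 for pairs of a fast and a slow gene (48 pairs) and 0.376 for a shared and a regenerating gene (40 pairs). Between these lay pairs of a fast and a regenerating gene, at 0.461 (48 pairs, from −0.165 to 0.898), and pairs of regenerating genes, at 0.675 (6 pairs). Among the 30 tested muscle genes, Myl1 followed Acta1 most closely (r = 0.998), and Myl3 (0.939) and Tnnc1 (0.892) followed Myog most closely. Of the further muscle genes described below, Chrnd (0.922) and Myl4 (0.894) followed Myog more closely than Tnnc1 did.

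Among genes that all fibres share, Ckm, the muscle creatine kinase, had 33.1, 347, 38.0 and 4.03 CPM in PDT 1 to PDT 4 and 9.66, 115, 7.81 and 1.13 CPM in PBS 1 to PBS 4. In log2 it differed by 1.65 ± 1.29 (SE, adjusted p = 0.587 by edgeR), and −0.41 without PDT 2. Pygm, the muscle glycogen phosphorylase, had 10.7, 110, 13.4 and 1.91 CPM in PDT 1 to PDT 4 and 2.67, 30.2, 5.15 and 0.872 CPM in PBS 1 to PBS 4. Its log2 change was 1.79 ± 1.14, the largest of the shared genes, and −0.15 without PDT 2.

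Mb, the oxygen-binding myoglobin of oxidative fibres, was an exception in its order of libraries. It had 8.25, 12.2, 1.36 and 3.35 CPM in PDT 1 to PDT 4 and 6.64, 1.91, 10.9 and 1.77 CPM in PBS 1 to PBS 4. PBS 3, the library led by the IIa chain Myh2, held the highest PBS level, and PBS 2 was near the lowest. The log2 change was 0.24 ± 0.69 (SE, adjusted p = 0.909 by edgeR), and 33.6% of the exon bases of Mb overlap genes of the opposite strand.

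Eno3, the muscle enolase, was the most even of these genes. It had 52.1, 112, 33.3 and 33.3 CPM in PDT 1 to PDT 4 and 36.9, 70.7, 37.8 and 50.1 CPM in PBS 1 to PBS 4, and the fitted difference was 0.24 ± 0.36 in log2 (SE, adjusted p = 0.815 by edgeR). PBS 4, the lowest library for Acta1, was the second of the PBS libraries for Eno3.

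The large sarcomere proteins and the coupling channels had low levels per kb, from 0.055 CPM per kb for Ttn to 2.96 for Actn2, averaged over the 8 libraries. Ttn (titin, the spring of the sarcomere) ranged from 1.47 to 24.9 CPM in PDT and from 1.86 to 5.39 CPM in PBS, and Neb (nebulin, the thin filament ruler) from 2.66 to 47.0 CPM in PDT and from 1.98 to 19.1 CPM in PBS. Log2 changes were 1.28 ± 0.72 for Ttn, 0.83 ± 0.86 for Neb and 1.16 ± 0.84 for Actn2, the other Z-disc alpha-actinin, against −0.032, −0.81 and 0.18 without PDT 2. Ryr1, the calcium release channel, had 8.93, 30.8, 4.84 and 4.08 CPM in PDT 1 to PDT 4 and 3.86, 12.8, 3.13 and 3.66 CPM in PBS 1 to PBS 4, a log2 change of 1.05 ± 0.65, and 0.036 without PDT 2. Cacna1s, its voltage sensor in the outer membrane, had a log2 change of 0.39 ± 0.89, and −0.41 without PDT 2. The 5 adjusted p-values by edgeR lay between 0.417 and 0.885, and each gene had its highest level in PDT 2.

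A further 71 genes of muscle were taken from lists of sarcomere, calcium release, metabolism and regeneration genes. Of these, 65 were tested, 56 had a positive log2 change, the median was 1.01, and 0 passed the edgeR threshold, while 13 had an unadjusted p under 0.05 (11 higher in PDT, against 8.63% of all tested genes, and 2 lower, against 7.87%). DESeq2 called 3 of the 65 and limma-voom 1, against 6.36% and 1.01% of all genes with a value. Of the 13 regeneration genes tested, 9 had a positive and 4 a negative log2 change.

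The sarcomere genes with the smallest p were Nrap, a protein of nascent myofibrils, at 2.27 ± 0.75, and Lmod2, a nucleator of actin filaments, at 2.41 ± 0.84. Of the calcium release genes these were Cav3, the caveolin of the muscle membrane, at 3.48 ± 1.17, and Hrc, a calcium-binding protein of the reticulum, at 2.28 ± 0.81. All of these are log2 changes with their SE. Without PDT 2, Nrap was at 1.09 and Lmod2 at 1.52. Cav3 had 4.08, 1.58, 1.25 and 0.733 CPM in PDT 1 to PDT 4, all above the PBS libraries, which had 0, 0.381, 0 and 0.291 CPM, but its adjusted p was 0.171 by edgeR. Of the metabolism genes, Fabp3, a fatty acid carrier, was at 1.84 ± 0.55 and Cox6a2, a respiratory chain subunit of muscle, at 2.09 ± 0.72, and without PDT 2 these were 1.65 and 1.23. Past the threshold were Nrap, Lmod2 and Cox6a2 with no count filter, Hrc by DESeq2, and Fabp3 under 3 of 18 alternatives (no count filter, DESeq2 and the replicate block), while Cav3 was past it under none of 17.

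In the regeneration list, Megf10, a receptor of satellite cells that other cell types also use, was lower in PDT. It had 1.55, 2.45, 2.27 and 1.37 CPM in PDT 1 to PDT 4 and 5.22, 7.72, 5.23 and 9.51 CPM in PBS 1 to PBS 4. The groups did not overlap, and the log2 change was −1.86 ± 0.34 (SE, adjusted p = 0.0515 by edgeR, just outside the threshold). It was past the threshold under 7 of 18 alternatives, DESeq2 and limma-voom among them, with adjusted p-values from 6.59e-05 to 0.176. It did not follow Myog, with r = −0.641 over 8 libraries.

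Myl4, the light chain of embryonic muscle and atrium, had 57.1, 7.14, 7.54 and 15.1 CPM in PDT 1 to PDT 4 and 3.02, 7.37, 6.44 and 3.58 CPM in PBS 1 to PBS 4. PDT 1 was again the highest, and the log2 change was 2.09 ± 0.62 (SE, adjusted p = 0.132 by edgeR) and 0.97 without PDT 1. The following were chosen after their values were seen. Mymk, which fuses myoblasts, had 3.10, 0, 1.03 and 0.489 CPM in PDT 1 to PDT 4 and 0 reads in every PBS library. Chrng, the fetal subunit of the muscle acetylcholine receptor, had 1.53, 0.153, 0.223 and 0.440 CPM in PDT 1 to PDT 4, against 0.0526 CPM in PBS 3 and 0 reads in the other PBS libraries. Both were too low to be tested. Actc1, the cardiac actin that developing skeletal muscle also makes, was highest in PDT 1 too, at 11.9 CPM. Of all 16 genes of the regeneration list, 8 were highest in PDT 1, 2 in PDT 2 and 4 in a PBS library.

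Markers of other tissues did not share one order with muscle. Summed levels of 10 adipocyte genes were 75.6, 89.1, 506 and 89.4 CPM in PDT 1 to PDT 4 and 43.1, 407, 37.4 and 40.4 CPM in PBS 1 to PBS 4. Fat was thus high in PBS 2, a muscle-rich library, and in PDT 3, but not in PDT 2. Of these genes, Fabp4, the fatty acid carrier of fat cells, reached 203 CPM in PDT 3 and 151 CPM in PBS 2, and Cfd, the adipokine adipsin, 193 and 131 CPM.

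Summed epidermis genes (10, led by the keratins Krt14 and Krt10) were 26.4, 17.1, 21.3 and 60.3 CPM in PDT 1 to PDT 4 and 30.4, 17.6, 111 and 17.7 CPM in PBS 1 to PBS 4. They peaked in PBS 3, where the IIa chain and Mb were high. The other libraries did not repeat this pairing. PDT 4, the next highest for epidermis genes, had Myh2 at 0.244 CPM and Mb at 3.35 CPM. PDT 2, the lowest for epidermis genes, had Myh2 at 7.14 CPM and Mb at 12.2 CPM. Summed macrophage genes (10, led by Lyz2 and Ctsb) were 6533 to 8487 CPM in PDT and 3104 to 5554 CPM in PBS, so the groups did not overlap in this sum, whereas they overlapped in the muscle sum. This macrophage sum was highest in PDT 1, as was the sum of regenerating muscle genes. Gene by gene, however, 7 of the 10 macrophage genes were highest in PDT 2 and 2 in PDT 1. Tumour epithelium genes (10, led by Krt8 and Krt18) summed to 3123 CPM in PDT 2, their lowest library, and to between 3574 and 7332 CPM in the other 7. The part of these tissues in the muscle differences was not tested.

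Des, desmin, stands on the smooth muscle list but is also the intermediate filament of skeletal muscle. It had 223, 441, 67.0 and 49.4 CPM in PDT 1 to PDT 4 and 48.7, 177, 47.5 and 34.9 CPM in PBS 1 to PBS 4, the same highest library in each group as Acta1. Acta2, the smooth muscle actin with the most reads of that list, was at 578, 1033, 703 and 671 CPM in PDT 1 to PDT 4 and 649, 416, 365 and 644 CPM in PBS 1 to PBS 4. Its range within a group was far narrower than that of Acta1. Cardiac genes summed to 4.84 CPM or less, led by Myl7 and Tnni3, and Schwann cell genes (led by Mbp and Egr2) to between 47.6 and 66.2 CPM.

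**Figure D5:**
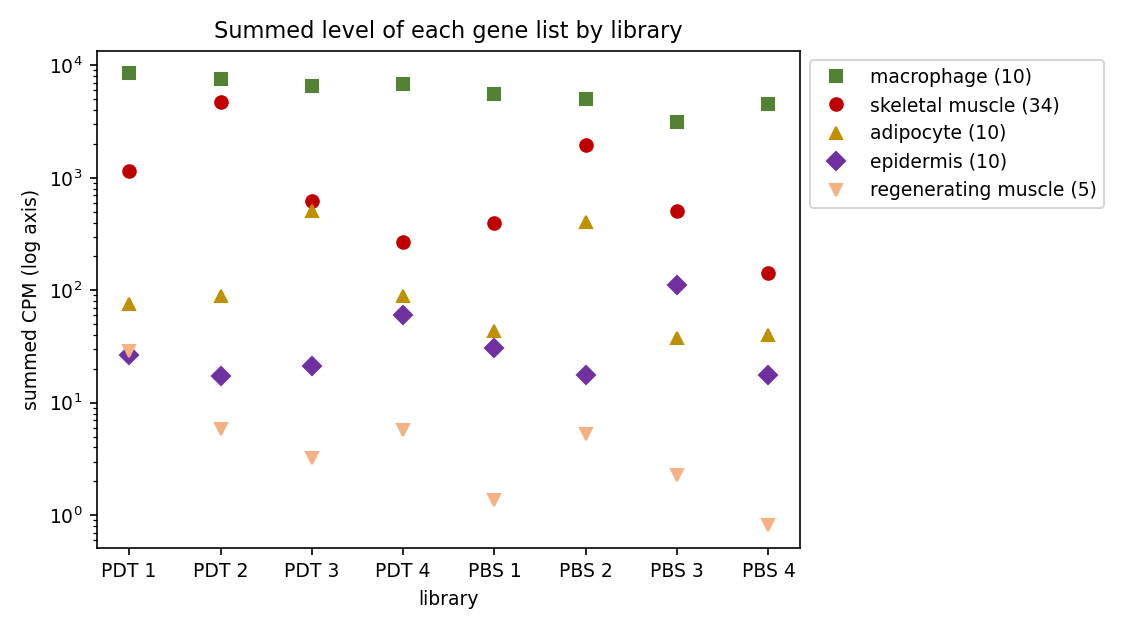
Summed CPM of each gene list by library on a log axis, with the number of genes in brackets. Skeletal muscle peaks in PDT 2 and PBS 2, regenerating muscle in PDT 1, adipocyte genes in PDT 3 and PBS 2, and epidermis genes in PBS 3, while macrophage genes lie higher in every PDT library than in any PBS library.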

How the data were processed

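Libraries were directional and came from total RNA without its ribosomal RNA, per the labels' protocols. The authors deposited raw read counts per gene for 8 libraries, per the file headers. Per the submitters' processing notes, cutadapt 4.6, STAR 2.7.11b and the build GRCm39 were used, with no role given. The counting tool, its strand and multi-mapping settings and the annotation are not stated in the sources used here.

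The counts were tested as deposited in R 4.3.3 with edgeR 4.0.16: filterByExpr (16588 genes kept, 0.0694% to 0.109% of reads removed), TMM scaling, quasi-likelihood test of PDT minus PBS with no covariate, Benjamini-Hochberg adjustment over all tested genes, threshold 0.05. CPM were computed from the deposited counts and TMM-scaled library sizes. Group values are mean ± SD over 4 libraries. Alternatives were RLE, upper quartile and TMM without muscle genes, other filters, DESeq2 1.42.0, limma-voom (limma 3.58.1) with quality weights, a replicate block, counts divided by 2, and libraries left out. The fit was tested on simulated data with 200 changed genes. Transcript lengths and overlaps came from GENCODE of GRCm38, the preceding assembly, matched by identifier for all 34 genes. Heavy chains were aligned with MAFFT 7.526. No gene was on several identifiers. The rule for named genes took all 34 members, the 2 with the smallest p of each further muscle list and the 2 with most reads of each other tissue list. Mymk, Chrng, Actc1, Nppa and Myh6 fall outside it and were chosen after their values were seen. The members and lists were chosen with earlier results of these data known. Lists are described by counts and medians and have no test of their own.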

Additional observations from a re-analysis of the deposited data

Results flagged for a closer look

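Ryr1 in PBS 2 was at 12.8 CPM, against 3.86 CPM in the next PBS library, far from the other 3 on the log2 scale. This was examined in 65 gene and group combinations, and chance flags about 1 in 20 of such groups. In 5 further combinations 1 library had reads while the other libraries of its group were tied at 0, which alone sets the measure to its maximum, so these are given as values only. Myh3 in PBS 2 (0.858 CPM), Myl2 in PBS 2 (0.763 CPM) and Pax7 in PBS 2 (0.191 CPM) were the only values above 0 reads in the PBS group. The same held for Myh8 in PBS 1 (0.653 CPM) and, in the PDT group, for Pax7 in PDT 3 (0.178 CPM). PBS 2 is the PBS library with the most muscle reads.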

How the results depend on the processing

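Over all genes, 39 were called by edgeR. The count was 69 with upper quartile scaling, 534 with no count filter, 88 with a filter of 1 CPM in 4 samples, 869 by DESeq2, 167 by limma-voom, 67 with counts divided by 2, 1 with both libraries numbered 2 left out (added after seeing the data), and 0 to 122 with 1 library left out. Of the muscle genes, 0 were called, against 2 with no count filter (Myh1, adjusted p = 0.0369, and Mylpf, 0.04996) and 0 with 1 library left out. The replicate block called 6 muscle genes (Tnnt3, Tnni2, Atp2a1, Actn3, Ckm and Pygm) and 182 genes in all. The labels do not pair the samples by number. Deviations of same-numbered libraries from their group mean correlated at 0.0385 to 0.0690 over all tested genes. Libraries of different numbers were not compared, so these values cannot decide whether the numbers pair the samples.

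The median log2 change with 1 library left out ran from −0.067 to 2.73 for fast, 0.94 to 1.76 for slow, −0.286 to 1.56 for shared and 1.12 to 2.74 for regenerating genes. The low ends came without PDT 2 for fast and shared genes and without PDT 1 for slow and regenerating genes. With 1 library left out, log2 changes took both signs for Myh2 (−2.88 without PDT 2 to 0.34 without PBS 3), Myh4 (−1.04 to 5.90), Myl1 (−0.49 to 1.98), Atp2a1 (−0.30 to 3.52), Pvalb (−1.70 to 4.03), Actn3 (−0.27 to 2.53), Acta1 (−0.47 to 1.98), Ckm (−0.41 to 4.09), Mb (−0.28 to 0.87), Eno3 (−0.29 to 0.47), Neb (−0.81 to 1.58), Ttn (−0.032 to 1.65), Pygm (−0.15 to 3.54) and Cacna1s (−0.41 to 1.25). For each of these the low end came without PDT 2. By limma-voom the log2 change was negative for Mb (−0.027), Eno3 (−0.14), Neb (−0.27) and Cacna1s (−0.14), and with both libraries 2 left out for Mb (−0.56), Eno3 (−0.064) and Neb (−0.059). The cause was not tested. Low counts limit Myh7, Myl2, Pax7, Mymk and Chrng, and PBS 4, with 204 heavy chain reads, is the least precise library.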
